A study of Anser cygnoides with 12 samples.

Results

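Genes of the BCL2 family, which govern apoptosis at the mitochondria, were followed in ileum (distal small intestine) from Yangzhou geese fed 3 diets. Its members were taken by gene name from the deposited expression table. All 10 names were found among the 19836 genes: the anti-apoptotic MCL1, BCL2L1 and BCL2, the effectors BAK1 and BOK, the BH3-only proteins BID, BCL2L11 and BMF, and the less studied BCL2L15 and BCL2L14. The lactulose group received a diet with 21% crude protein and 0.3% lactulose, a sugar that passes undigested to the hindgut, where microbes ferment it. The high protein group received 21% crude protein without lactulose, and the control group a basal diet with 18% crude protein. Poly(A) RNA was sequenced in 4 libraries per diet, which keep the replicate numbers of the labels: lactulose 2, 3, 5 and 6, high protein 1, 3, 4 and 5, and control 3, 4, 6 and 7. The labels used here give neither age nor sex, nor whether each library is a separate bird, and p-values therefore reflect only how far these libraries scatter, which may be technical.

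Proteins of the BCL2 family decide whether the outer mitochondrial membrane is breached, the step that releases cytochrome c and starts the caspases in the intrinsic pathway of apoptosis. Effectors build the pores, anti-apoptotic members hold effectors and BH3-only members in check, and BH3-only members carry stress signals into the system. In the small intestine, enterocytes are made in the crypts, move up the villus and are shed at its tip, and lymphocytes and macrophages of the wall also turn over. The study's title names gut health and uric acid metabolism as the questions behind the diets. These roles come mostly from human and mouse work, and transcript levels do not show protein, its cleavage or its binding partners.

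Total counts ranged from 38706155 to 48251825 per library. FABP6, the bile acid binding protein of the ileum, stood at 621 to 3490 FPKM (fragments per kilobase of transcript, scaled to sequencing depth by the authors) and the intestinal transcription factor CDX2 at 59.6 to 132 FPKM, so genes known from the ileum were present. MYH11, the myosin of smooth muscle, stood at 105 to 616 FPKM. A few libraries stood apart. Control 3 correlated with the other controls at r = 0.922 to 0.950 across genes (log2 CPM), and its values with control 6 and control 7, 0.922 and 0.932, were the lowest of the 18 same-diet pairs. Lactulose 3 and 5 correlated with each other at 0.983, the highest of these pairs. Fold changes of members that shifted most without control 3, or with lactulose 3 and 5 summed as 1 library, are given both ways.

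Across all 12 libraries the family was led by BCL2L15, at 270.3 ± 134 FPKM (SD, n = 12), a higher mean than 99.0% of the genes in the table. MCL1 followed at 72.5 ± 6.79 FPKM, BID at 43.3 ± 6.95 FPKM, BCL2L1 at 24.3 ± 3.66 FPKM and BAK1 at 19.2 ± 2.86 FPKM. BOK averaged 11.5 ± 3.06 FPKM, BCL2L14 8.34 ± 2.86 FPKM, BCL2L11 7.82 ± 1.72 FPKM, BCL2 4.21 ± 1.17 FPKM and BMF 4.05 ± 1.19 FPKM. The 3 steps at the top held in every library: BCL2L15, MCL1, BID and BCL2L1 had ranges that did not touch. Lower down the neighbours were not separated by their spread. BOK exceeded BCL2L14 in 7 of 12 libraries, BCL2L14 exceeded BCL2L11 in 5 and BCL2 exceeded BMF in 8, whereas BCL2L11 exceeded BCL2 in all 12 although their ranges overlapped.

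These levels are per length, and raw counts order the genes differently. BAK1 had 7023 to 10568 counts per library and MCL1 5965 to 8871. The ratio of count to FPKM, however, implies a length of 10606 bases for BAK1 and 2418 bases for MCL1. BCL2L15 has the shortest implied length of the family, 918 bases, and BMF the longest, 12795 bases. Listed transcripts number 1 each for MCL1 and BCL2L15, 3 for BAK1, 6 for BMF and 7 for BCL2L14 (10796 bases). BCL2, with 1 transcript, has 7587 bases, and BOK, with 3, has 2573. Whether an implied length stands for 1 transcript or several is not known here. The order of members by FPKM rests on these lengths. Every member had at least 658 counts in each library, the lowest being BCL2 in control 3. Read pairs may be fewer, since 1 read pair may stand for about 4 counts. With counts divided by 4, all 10 members still passed the filter on low counts, and edgeR called 0 of them in each comparison.

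**Figure D1:**
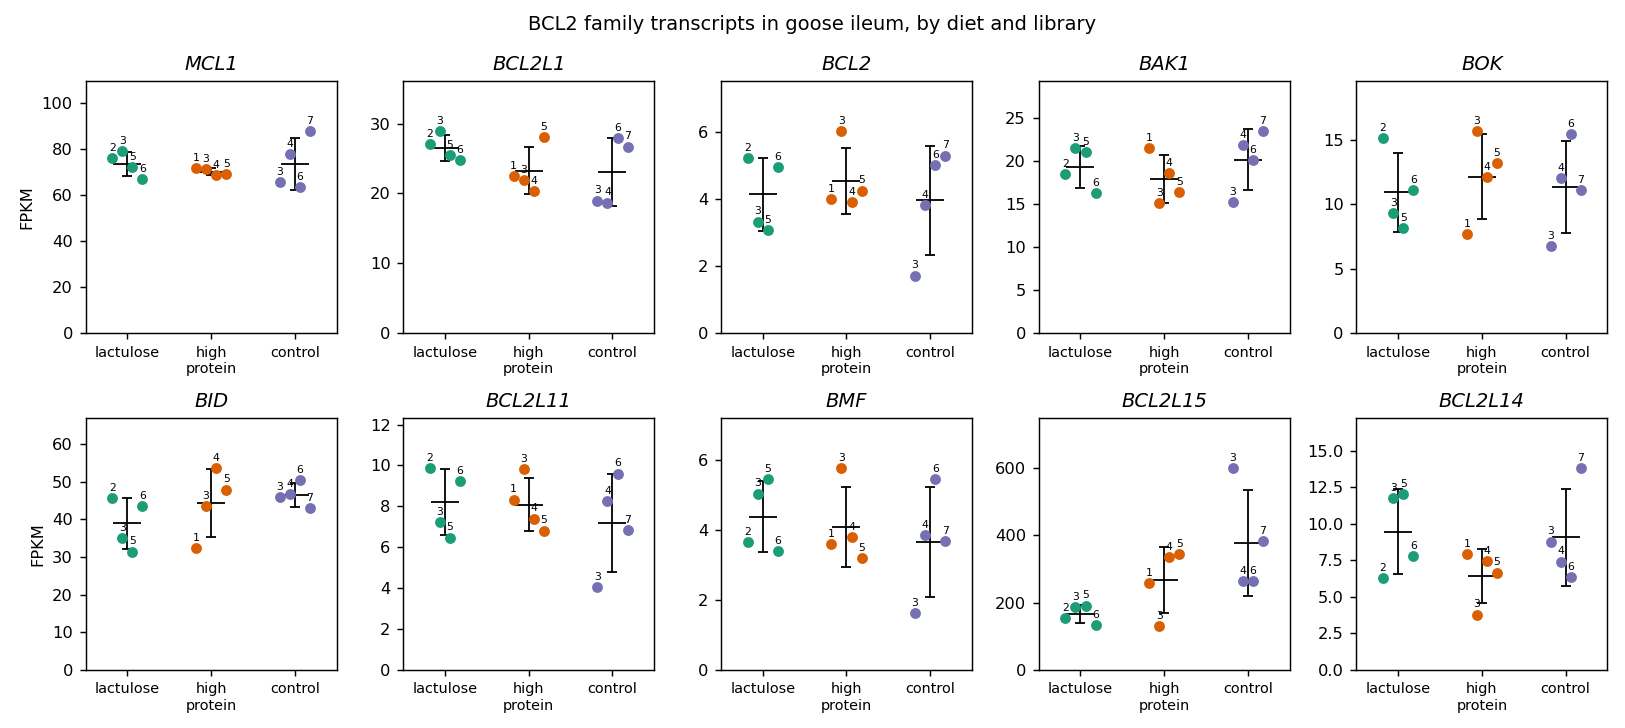
FPKM of the 10 members (one panel each, linear axis from 0) in lactulose, high protein and control libraries. Points are libraries with their replicate numbers, and bars are the mean and SD of 4 libraries. BCL2L15 in lactulose libraries (132 to 191 FPKM) lies below all controls (263 to 600 FPKM), whereas MCL1 stays between 63.6 and 87.8 FPKM in all 12.

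No member passed edgeR's quasi-likelihood test over all genes in any comparison (Benjamini-Hochberg adjusted p under 0.05). Of the 16075 genes tested, 0% passed in each of the 3 comparisons, so the 0 of 10 members matched the background. At an unadjusted p under 0.05, lactulose against control had 1 of 10 members, BCL2L15, where 6.2% of all genes passed, 3.94% while lower and 2.26% while higher. Lactulose against high protein had 0 of 10, where 5.65% of all genes passed (3.33% lower and 2.31% higher), and high protein against control had 0 of 10, where 3.17% passed (1.86% lower and 1.31% higher). The split by direction differed between tools: at an unadjusted p under 0.05 edgeR had 364 genes higher and 633 lower in lactulose against control, and limma on log2(FPKM + 1), which also differs in unit, filter and scaling, had 423 higher and 225 lower. DESeq2, the other count-based tool, called 22, 19 and 8 genes at an adjusted p under 0.05 in lactulose against control, lactulose against high protein and high protein against control, and 0 members in each. A p that misses the threshold does not show that levels were equal, and the 95% intervals below give the sizes the data allow.

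MCL1, an anti-apoptotic protein with a short half-life on which the intestinal epithelium of mice depends, was the steadiest member, with a coefficient of variation of 9.36% over the 12 libraries. It stood at 76.1, 79.1, 72.1 and 67.0 FPKM in lactulose 2, 3, 5 and 6, at 71.7, 71.2, 68.7 and 69.1 FPKM in high protein 1, 3, 4 and 5, and at 65.6, 78.0, 63.6 and 87.8 FPKM in control 3, 4, 6 and 7. The diets overlapped throughout, and the controls spanned both ends of the range. The log2 fold change was −0.11 for lactulose against control (95% interval −0.43 to 0.21), −0.02 for lactulose against high protein (−0.34 to 0.30) and −0.09 for high protein against control (−0.41 to 0.23). On the FPKM scale, which was not corrected for composition, the first was 0.0065 and the second 0.065 by limma, so neither direction was stable. Without control 3 the log2 values were −0.056 in lactulose against control and −0.031 in high protein against control, and with lactulose 3 and 5 as 1 library lactulose against high protein was −0.062. MCL1 made up 65.9 to 77.6% of the summed FPKM of the 3 anti-apoptotic members.

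BCL2L1, which encodes BCL-XL, stood at 27.1, 28.9, 25.5 and 24.7 FPKM in lactulose 2, 3, 5 and 6, at 22.5, 21.9, 20.4 and 28.1 FPKM in high protein 1, 3, 4 and 5, and at 19.0, 18.7, 27.9 and 26.7 FPKM in control 3, 4, 6 and 7. All 4 lactulose libraries lay above 3 of the 4 high protein libraries, and high protein 5 lay among them. Means were 26.5 ± 1.84 FPKM with lactulose, 23.2 ± 3.36 FPKM on high protein and 23.1 ± 4.90 FPKM in controls (SD, n = 4 per diet here and below). In log2 terms lactulose differed from control by 0.11 (−0.21 to 0.44) and from high protein by 0.11 (−0.22 to 0.43), and high protein from control by 0.01 (−0.32 to 0.34). With lactulose 3 and 5 as 1 library the first 2 of these were 0.075 and 0.065, and without control 3 the last was 0.033.

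BCL2, the founding member, which in mammals is prominent in lymphocytes and crypts, was among the least abundant. Its levels were 5.201, 3.32, 3.07 and 4.93 FPKM in lactulose 2, 3, 5 and 6, then 3.998, 6.005, 3.89 and 4.24 FPKM in high protein 1, 3, 4 and 5, and 1.71, 3.82, 5.01 and 5.29 FPKM in control 3, 4, 6 and 7. Lactulose 3 and 5 were lower than lactulose 2 and 6, and control 3 was the lowest of all. The lactulose against control difference was −0.0011 on the log2 scale (−0.51 to 0.51) and took either sign across the alternatives. Lactulose against high protein gave −0.23 (−0.74 to 0.28) and high protein against control 0.23 (−0.28 to 0.73). Without control 3 high protein against control was 0.034 and lactulose against control −0.20. With lactulose 3 and 5 as 1 library lactulose against high protein was −0.15 and lactulose against control 0.077.

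BAK1, the pore-forming effector, stood at 18.5, 21.5, 21.1 and 16.3 FPKM in lactulose 2, 3, 5 and 6, at 21.6, 15.1, 18.6 and 16.4 FPKM in high protein 1, 3, 4 and 5, and at 15.2, 21.9, 20.1 and 23.5 FPKM in control 3, 4, 6 and 7. No diet stood apart, and every diet held both high and low libraries. Log2 fold changes were −0.14 for lactulose against control (−0.52 to 0.24), 0.02 for lactulose against high protein (−0.36 to 0.40) and −0.16 for high protein against control (−0.55 to 0.22). The value against high protein was −0.059, and that against control −0.22, with lactulose 3 and 5 counted as 1 library.

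BOK, an effector-like member found at the endoplasmic reticulum and Golgi, stood at 15.1, 9.31, 8.17 and 11.1 FPKM in lactulose 2, 3, 5 and 6, at 7.68, 15.7, 12.1 and 13.2 FPKM in high protein 1, 3, 4 and 5, and at 6.78, 12.04, 15.4 and 11.1 FPKM in control 3, 4, 6 and 7. Its spread within each diet exceeded any difference between diet means. Those means were 10.9 ± 3.06 FPKM with lactulose, 12.2 ± 3.33 FPKM on high protein and 11.3 ± 3.57 FPKM in controls. Log2 fold changes of BOK were −0.13 in lactulose against control (−0.59 to 0.33), −0.25 in lactulose against high protein (−0.71 to 0.21) and 0.12 in high protein against control (−0.34 to 0.58). Without control 3 high protein against control was 0.018 and lactulose against control −0.24, and with lactulose 3 and 5 as 1 library lactulose against control was −0.067. Without high protein 1 the value in high protein against control was 0.28. BAK1 exceeded BOK in 11 of 12 libraries. In high protein 3 the ratio of BAK1 to BOK was 0.965, and in high protein 1 it was 2.81.

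BID, which caspase-8 cuts to link death receptors to the mitochondria, was the most abundant BH3-only member, with 72.5 to 89.0% of the summed FPKM of the 3. It stood at 45.7, 35.0, 31.4 and 43.6 FPKM in lactulose 2, 3, 5 and 6, at 32.4, 43.6, 53.6 and 47.9 FPKM in high protein 1, 3, 4 and 5, and at 46.0, 46.7, 50.4 and 42.9 FPKM in control 3, 4, 6 and 7. Lactulose 3 and 5, the most alike of the same-diet pairs (r = 0.983), lay below all controls, while lactulose 2 and 6 lay among them. The log2 fold change for lactulose against control was −0.38 ± 0.18 (SE; 95% interval −0.76 to 0.003, unadjusted p = 0.0516, adjusted p = 0.771 by edgeR), and −0.26 without control 3. Lactulose against high protein gave −0.30 (−0.68 to 0.09) and high protein against control −0.08 (−0.47 to 0.30). The last was 0.038 without control 3, so its direction was not stable.

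BCL2L11, which encodes BIM, a binder of all anti-apoptotic members, stood at 9.87, 7.23, 6.47 and 9.24 FPKM in lactulose 2, 3, 5 and 6, at 8.32, 9.81, 7.40 and 6.81 FPKM in high protein 1, 3, 4 and 5, and at 4.05, 8.25, 9.60 and 6.82 FPKM in control 3, 4, 6 and 7. Outside control 3, which was the lowest, the diets covered nearly the same range. Lactulose differed from control by 0.12 (−0.24 to 0.48) and from high protein by −0.07 (−0.43 to 0.29) on the log2 scale, and high protein from control by 0.19 (−0.17 to 0.56). The lactulose against control value was −0.0046 without control 3, and high protein against control was then 0.074. With lactulose 3 and 5 as 1 library lactulose against high protein was −0.024.

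BMF, a BH3-only protein that in mammals is linked to loss of cell attachment, stood at 3.67, 5.05, 5.45 and 3.39 FPKM in lactulose 2, 3, 5 and 6, at 3.599, 5.78, 3.80 and 3.20 FPKM in high protein 1, 3, 4 and 5, and at 1.62, 3.87, 5.47 and 3.69 FPKM in control 3, 4, 6 and 7. High values came singly or, in lactulose 3 and 5, together, and every diet reached above 5 FPKM. Its log2 fold changes were 0.24 for lactulose against control (−0.33 to 0.81), 0.04 for lactulose against high protein (−0.52 to 0.61) and 0.20 for high protein against control (−0.37 to 0.76). Without control 3 the first was 0.048 and the last 0.011. With lactulose 3 and 5 as 1 library lactulose against control was 0.11 and lactulose against high protein −0.085.

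BCL2L15, known as BFK in mice, where it is found mainly in the gastrointestinal tract, was the most abundant and the most variable member, with a coefficient of variation of 49.6%. It stood at 153, 186, 191 and 132 FPKM in lactulose 2, 3, 5 and 6, at 259, 131, 336 and 345 FPKM in high protein 1, 3, 4 and 5, and at 600.3, 264, 263 and 383 FPKM in control 3, 4, 6 and 7. All 4 lactulose libraries lay below all 4 controls, while high protein 3 was the lowest of the 12 libraries, high protein 1 also lay just below all controls, and high protein 4 and 5 lay among them. Ranked by FPKM within a library, BCL2L15 held places 265 to 379 with lactulose, 164 to 375 with high protein and 130 to 186 in controls.

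The mean of BCL2L15 was 166 ± 27.7 FPKM with lactulose, 268 ± 99.1 FPKM on high protein and 378 ± 159 FPKM in controls. The log2 fold change for lactulose against control was −1.37 ± 0.41 (SE; 95% interval −2.25 to −0.48, unadjusted p = 0.0055, adjusted p = 0.771 by edgeR, and 0.156 to 1.0 over the alternatives). Groups of FPKM values that did not overlap were found for 1 of 10 members in this comparison, against 3.21% of all genes tested (1.15% lower and 2.06% higher). Without control 3 the log2 value was −0.87 (adjusted p = 0.934), with lactulose 3 and 5 as 1 library −1.47 (adjusted p = 0.931), and with both changes −0.96 (adjusted p = 1.0). Lactulose against high protein gave −0.80 ± 0.40 (−1.67 to 0.08, adjusted p = 0.845) with 0 of 10 members not overlapping, against 6.5% of all genes (1.79% lower and 4.71% higher). High protein against control gave −0.57 ± 0.40 (−1.44 to 0.30, adjusted p = 1.0) and −0.062 without control 3, with 0 of 10 members not overlapping, against 1.44% of all genes (0.958% lower and 0.485% higher). These comparisons share libraries, so they are not independent of each other.

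BCL2L14, or BCL-G, which in mice is made in the gut epithelium and whose part in apoptosis is disputed, was far less abundant. It stood at 6.26, 11.8, 12.1 and 7.80 FPKM in lactulose 2, 3, 5 and 6, at 7.91, 3.78, 7.46 and 6.66 FPKM in high protein 1, 3, 4 and 5, and at 8.78, 7.41, 6.32 and 13.8 FPKM in control 3, 4, 6 and 7. Lactulose 3 and 5 lay above every high protein library, and high protein 3 was again the lowest of the 12. The log2 fold change was −0.04 for lactulose against control (−0.79 to 0.71), 0.47 for lactulose against high protein (−0.28 to 1.22) and −0.51 for high protein against control (−1.26 to 0.24). On the FPKM scale the first of these was 0.064 by limma, and without control 3 it was 0.059, so its direction was not stable. With lactulose 3 and 5 as 1 library it was −0.19, and lactulose against high protein was 0.31.

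**Figure D2:**
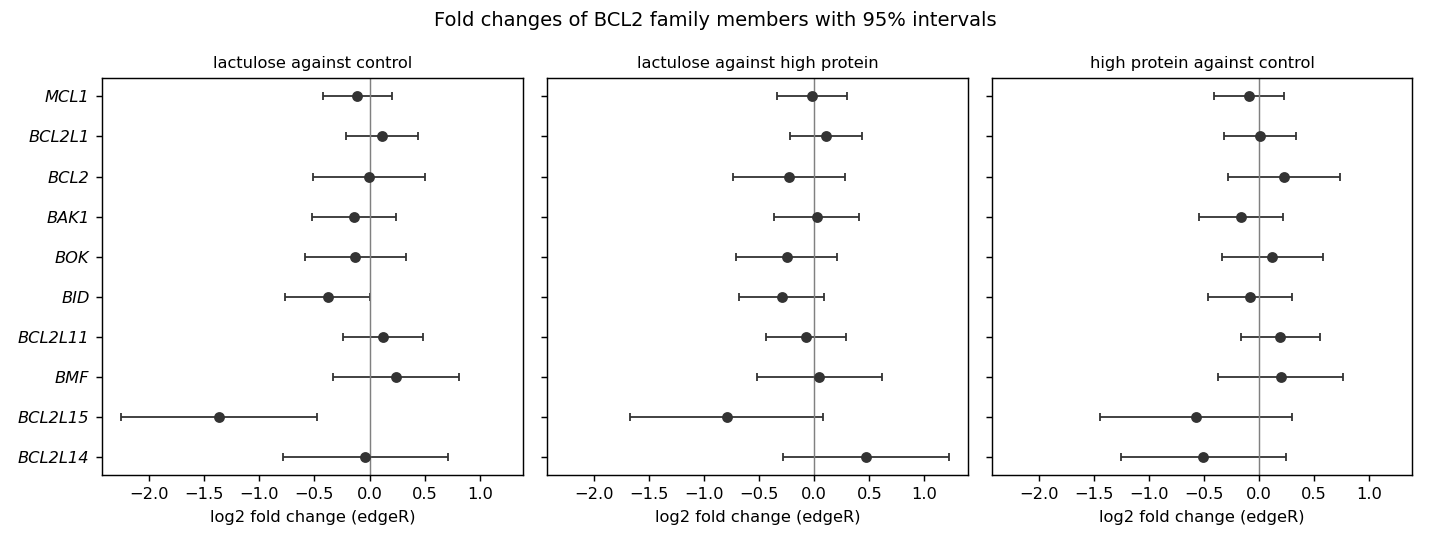
Fitted log2 fold changes (edgeR, points) with 95% intervals (bars) of the 10 members in the 3 comparisons. The interval of BCL2L15 in lactulose against control, −2.25 to −0.48, is the only 1 of the 30 that leaves out 0, and it is not adjusted for the genes tested.

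A ratio of 2 members within a library does not depend on how libraries are scaled. It can still depend on length where libraries differ in how they cover short and long transcripts. Implied lengths were 918 bases for BCL2L15 and 10796 bases for BCL2L14. The FPKM of all genes summed to 377623 to 429160 with lactulose, 428246 to 480978 with high protein and 383177 to 527703 in controls, highest in control 3. Whether length had a part in the ratios was not tested. The ratio of BCL2L15 to BCL2L14 was 24.5, 15.7, 15.9 and 17.0 in lactulose 2, 3, 5 and 6, then 32.7, 34.5, 45.1 and 51.7 in high protein 1, 3, 4 and 5, and 68.3, 35.7, 41.6 and 27.7 in control 3, 4, 6 and 7. All lactulose libraries lay below all 8 others. Among the 45 ratios of 2 members this was the 1 that did not overlap between lactulose and high protein, and 6 of 45 did not overlap between lactulose and control, 5 of them with BCL2L15 as numerator. The remaining ratio was that of BID to BCL2L11, at 4.63 to 4.86 with lactulose and 5.25 to 11.4 in controls. Between high protein and control 0 of 45 failed to overlap. BCL2L15 by itself already did not overlap between lactulose and control. No share over ratios of other genes was computed, so these counts have no background to be read against. These ratios were picked after their values were seen, share members, and have no test.

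Sums by role described the balance between members. The effectors and BH3-only members together came to 81.8 ± 8.65 FPKM with lactulose, 86.7 ± 9.34 FPKM on high protein and 88.9 ± 11.5 FPKM in controls. For the 3 anti-apoptotic members the sums were 104 ± 6.76, 97.9 ± 3.57 and 101 ± 14.0 FPKM in lactulose, high protein and control libraries. The ratio of pro- to anti-apoptotic FPKM was 0.857, 0.702, 0.721 and 0.865 in lactulose 2, 3, 5 and 6, then 0.749, 0.907, 1.03 and 0.864 in high protein 1, 3, 4 and 5, and 0.854, 0.922, 1.05 and 0.734 in control 3, 4, 6 and 7. Every diet reached below 0.75, and only high protein 4 and control 6 exceeded 1. BCL2L15 and BCL2L14 were left out of these sums, since their direction is not settled. Other relatives in the table, such as BCL2A1 and PMAIP1, were not included, and BAX was not found by name. The ratio therefore describes only the members followed here. BCL2L15 alone made up 41.3 to 50.8% of the summed FPKM of the 10 members with lactulose, 40.4 to 63.8% with high protein and 56.4 to 78.1% in controls, while the 9 other members together came to 196 ± 10.6, 191 ± 7.64 and 199 ± 22.0 FPKM.

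**Figure D3:**
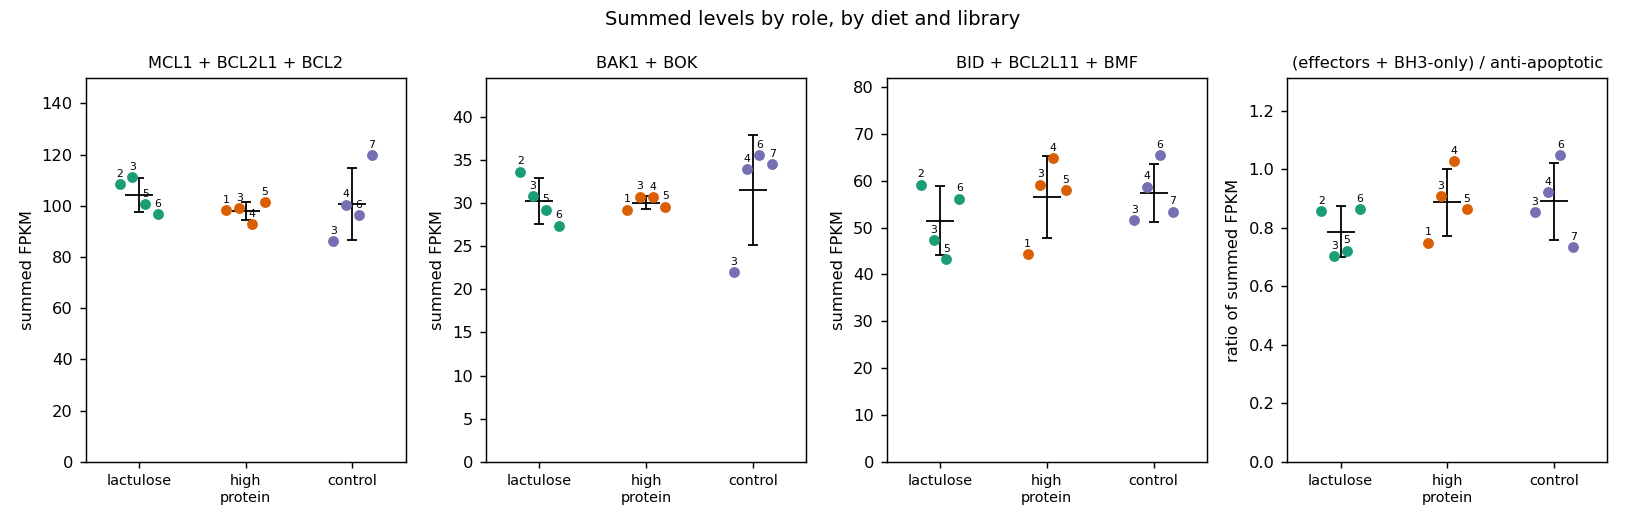
Summed FPKM of anti-apoptotic, effector and BH3-only members, and the ratio of effector plus BH3-only to anti-apoptotic FPKM, in lactulose, high protein and control libraries (points, with replicate numbers; bars are mean and SD, n = 4). The ratio runs from 0.702 to 0.865 with lactulose, 0.749 to 1.03 with high protein and 0.734 to 1.05 in controls, so the diets overlap.

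Libraries differed in their marker genes of epithelium and muscle. In bulk samples, fewer cells of a type and less RNA per cell cannot be told apart. The enterocyte list, 19 of whose 20 markers were in the table and none at 0 in all libraries, summed to 1671 to 6981 FPKM with lactulose, 1648 to 5477 FPKM with high protein and 1557 to 4929 FPKM in controls. Smooth muscle markers, 12 of 13, summed to 3081 to 8288, 3557 to 6698 and 2855 to 5562 FPKM in the same order. Over the 12 libraries BCL2L14 followed the mean log2 CPM of the enterocyte list (r = 0.85, permutation p = 0.00022, adjusted over 95 relations p = 0.0209; Spearman's rho = 0.85, permutation p = 0.00103, adjusted p = 0.0482). Without control 6 and lactulose 2, the libraries farthest from the median of the list, r was 0.87, and with lactulose 3 and 5 averaged it was 0.83.

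BCL2L14 also moved with BAK1 (r = 0.81, permutation p = 0.00088, adjusted p = 0.0418; rho = 0.82, permutation p = 0.00193, adjusted p = 0.0482; r = 0.64 without the 2 farthest libraries). Of the 95 relations, 50 with 5 marker lists and 45 between members, these 2 passed the adjusted threshold by Pearson's r and 4 passed by rank. The other 2 by rank were MCL1 with smooth muscle markers (rho = −0.83, permutation p = 0.00161, adjusted p = 0.0482; r = −0.76, adjusted p = 0.0593; r = −0.89 without the 2 farthest) and BID with T and NK cell markers (rho = 0.81, permutation p = 0.00203, adjusted p = 0.0482; r = 0.65, adjusted p = 0.121; r = 0.56 without the 2 farthest). Once each diet was centred on its own mean, r was 0.47 for BID with T and NK cell markers. It was −0.76 for MCL1 with smooth muscle markers, 0.94 for BCL2L14 with the enterocyte list and 0.84 for BCL2L14 with BAK1. The permutations did not keep diets apart. The libraries share normalization, and lactulose 3 and 5 were the most alike of the same-diet pairs (r = 0.983). Whether they are separate birds is not given. These p-values are too small to the extent that the libraries are not independent.

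Further relations with the enterocyte list did not pass. They were positive for MCL1 (r = 0.79, permutation p = 0.00222, adjusted p = 0.0593; rho = 0.66, adjusted p = 0.144) and BAK1 (r = 0.78, permutation p = 0.00388, adjusted p = 0.0593; rho = 0.72, adjusted p = 0.0978), and negative for BOK (r = −0.77, permutation p = 0.0046, adjusted p = 0.0593; rho = −0.78, adjusted p = 0.0718). Without the 2 farthest libraries r was 0.65, 0.86 and −0.73 in that order. Also negative were BCL2L11 (r = −0.62, permutation p = 0.0311, adjusted p = 0.148, rho = −0.63, adjusted p = 0.170) and BCL2 (r = −0.56, permutation p = 0.0538, adjusted p = 0.213, rho = −0.67, adjusted p = 0.140). Their r without the 2 farthest was −0.56 and −0.59. For BCL2L1, BID and BMF r was 0.38, −0.17 and −0.055. BCL2L15 had r = 0.48 with the list (permutation p = 0.115, adjusted p = 0.281; rho = 0.38, adjusted p = 0.443; r = 0.44 without the 2 farthest), and 0.70 once each diet was centred on its own mean. In the scatter plot the lactulose libraries lay between 6.85 and 7.49 log2 CPM for BCL2L15, at both ends of the enterocyte axis. With the enterocyte level as a covariate, the log2 fold change of BCL2L15 for lactulose against control was −1.37, as without it (adjusted p = 0.354 by edgeR). This covariate covers the enterocyte list only and is no test of cell content, whose part in this difference was not tested.

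**Figure D4:**
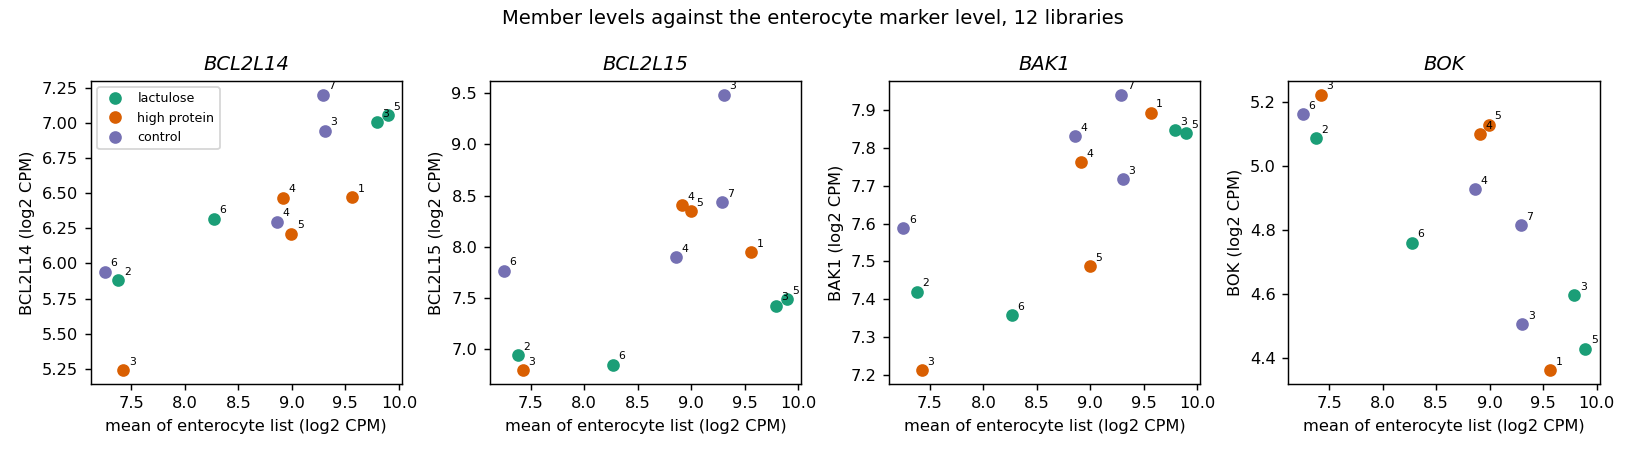
Log2 CPM of BCL2L14, BCL2L15, BAK1 and BOK (vertical axes) against the mean log2 CPM of the enterocyte marker list (horizontal axes) in the 12 libraries, coloured by diet and numbered by replicate. BCL2L14 is higher toward the right of the axis (r = 0.85) and BOK runs the other way (r = −0.77). For BCL2L15 the lactulose libraries lie low at both ends of the axis. High protein 3 also lies low for BCL2L15, toward the left of the axis.

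**Figure D5:**
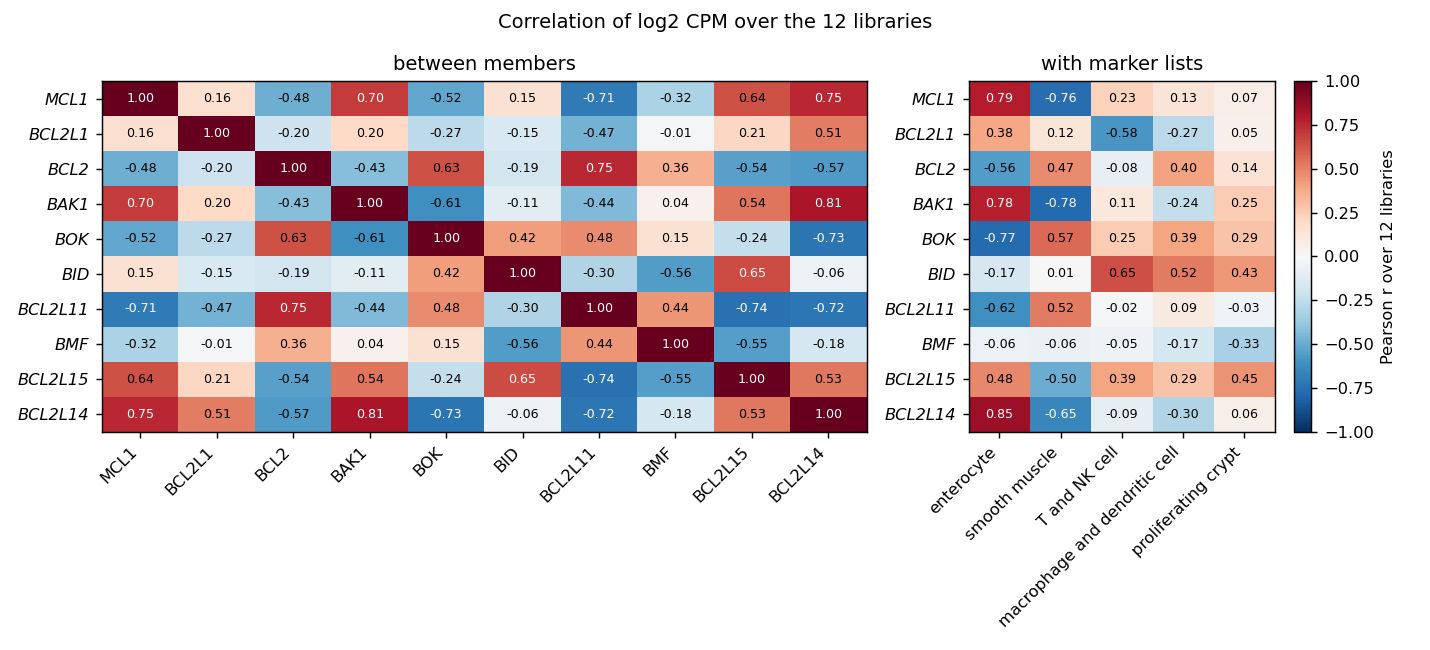
Pearson r of log2 CPM over the 12 libraries between members (left) and with the mean of 5 marker lists (right), from −1 (blue) to 1 (red). MCL1, BAK1 and BCL2L14 share positive values with each other (0.70 to 0.81) and with the enterocyte list, and BCL2, BOK and BCL2L11 share positive values with each other (0.48 to 0.75). Of the relations of MCL1, BAK1 and BCL2L14, only BCL2L14 with BAK1 and BCL2L14 with the enterocyte list passed the adjusted threshold. The relations among BCL2, BOK and BCL2L11 did not pass the adjusted threshold, and without control 3 they were 0.35 to 0.61.

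The genes whose log2 CPM pattern over the 12 libraries was most like that of a member were ranked by Pearson r among 12409 other genes with a symbol, as a description. For BCL2L15 they were PRDX1, DNAJC7 and RALB (r = 0.95 each), and PRDX1 stood at 276 to 962 FPKM. LRRC66, NUAK2 and SLC26A2 were nearest to BCL2L14 (0.96, 0.95 and 0.95). MCL1 had LAMP2, TOR2A and NEDD9 (0.94, 0.93 and 0.93), BCL2 had MYH10, RSPO4 and TNFAIP2 (0.94 each), and BCL2L1 had ELAC1, HSD11B1L and DDX60 (0.83, 0.82 and 0.82), the loosest matches of the family. The effector BAK1 was nearest to PPIP5K1, E2F8 and GPR148 (0.96, 0.94 and 0.94), and BOK to EOGT, FAM107B and RGMB (0.95, 0.93 and 0.91). Among BH3-only members BID had RILPL2, RFC2 and NUP43 (0.94, 0.94 and 0.93), BCL2L11 had PRIMA1, FGFR3 and SLC29A1 (0.96 each), and BMF had ZBTB18, RYR1 and ZC3H13 (0.90, 0.89 and 0.88). RSPO4 and RYR1 were low, with at most 0.414 and 0.271 FPKM. Without control 3 the matches of BCL2 dropped to 0.86 to 0.88 and those of BMF to 0.80 to 0.82. The r that the nearest of 12409 genes would reach by chance was not computed, so no match is shown to exceed chance.

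Other genes of the pathway were read from lists chosen with earlier results of these data known. Over all genes edgeR called 0 of 4 further BCL2 family or BCL2-associated genes, 0 of 15 death receptor genes, 0 of 14 caspase and apoptosome genes, 0 of 4 inhibitors of apoptosis, 0 of 27 mitochondrial partners and 0 of 19 genes of the p53 axis, in each of the 3 comparisons. The first list had 14 names, of which BCL2A1, BCL2L13, PMAIP1 and BCLAF1 were in the table. BAX, BAD and BBC3 were among those not found by name. Caspase and apoptosome genes had a median log2 fold change of −0.18 for lactulose against control, with 13 of 14 negative, where all genes tested had a median of 0.00 and 50.1% were positive. CYCS, cytochrome c, stood at 74.4 ± 7.25 FPKM with lactulose and 101 ± 39.8 FPKM in controls.

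Death receptor genes had a median of −0.25 in lactulose against control, with 12 of 15 negative. CFLAR, the inhibitor of caspase-8 activation, stood at 21.8 ± 2.16 FPKM with lactulose and 24.1 ± 2.91 FPKM in controls. MLKL, the effector of necroptosis, was low, at 0.194 ± 0.145 FPKM with lactulose (0.0770 to 0.38) and 0.941 ± 1.30 FPKM in controls (0.0756 to 2.87). Both had an adjusted p of 0.771. BCL2A1, an anti-apoptotic relative made by blood cells, stood at 1.56 ± 0.473 FPKM with lactulose and 2.17 ± 0.361 FPKM in controls (adjusted p = 0.771), and BCL2L13, a mitochondrial relative, at 10.7 ± 0.688 FPKM with lactulose and 9.38 ± 2.46 FPKM in controls. Inhibitors of apoptosis had a median of −0.04, with BIRC5, or survivin, at 30.2 ± 9.19 FPKM with lactulose and 35.8 ± 9.84 FPKM in controls, and BIRC6 at 6.98 ± 0.581 and 5.91 ± 2.11 FPKM.

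Among mitochondrial partners, BNIP1, a BH3-containing protein of the endoplasmic reticulum, stood at 12.7 ± 1.47 FPKM with lactulose, against 17.9 ± 1.18 FPKM on high protein and 17.1 ± 2.27 FPKM in controls. SH3GLB1, a membrane-bending partner of BAX, stood at 90.1 ± 9.62 FPKM with lactulose, against 144 ± 28.7 FPKM on high protein and 125 ± 30.9 FPKM in controls. BNIP3, a mitophagy receptor, stood at 69.4 ± 4.29 FPKM with high protein, against 56.5 ± 4.47 FPKM in controls, and PPP1R13B, a p53 partner, at 8.18 ± 1.13 and 7.28 ± 1.64 FPKM. Their adjusted p was 0.771 or more in each comparison, by edgeR. The median log2 fold change of the list was 0.00 in lactulose against control, −0.07 in lactulose against high protein and 0.03 in high protein against control.

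For the p53 axis, BTG2, an antiproliferative gene, stood at 101 ± 15.1 FPKM with lactulose, against 52.8 ± 9.94 FPKM on high protein and 62.6 ± 13.9 FPKM in controls (adjusted p = 0.845 and 0.771 by edgeR). CCNG1 stood at 20.5 ± 3.37 FPKM with lactulose and 24.5 ± 2.41 FPKM with high protein. TP73 was low, at or below 0.501 FPKM in high protein libraries and at or below 0.494 FPKM in lactulose libraries. Its means were 0.414 ± 0.0759 FPKM with lactulose and 0.372 ± 0.115 FPKM on high protein, against 0.260 ± 0.0684 FPKM in controls. The adjusted p of TP73 against control was 0.771 or more by edgeR. SESN1 stood at 90.7 ± 16.4 FPKM with high protein, against 72.7 ± 15.8 FPKM in controls (adjusted p = 1.0). In lactulose against high protein, DIABLO, which relieves inhibitors of apoptosis, stood at 30.1 ± 1.74 FPKM with lactulose and 33.0 ± 2.62 FPKM with high protein, and XIAP, a direct caspase inhibitor, at 12.3 ± 3.12 and 9.12 ± 1.37 FPKM.

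Several of the remaining genes gave small differences. With high protein against control, DFFA, the inhibitor of the apoptotic nuclease, stood at 8.51 ± 0.868 FPKM with high protein, against 9.69 ± 1.30 FPKM in controls, BIRC2 at 51.8 ± 10.1 and 51.2 ± 14.3 FPKM, and BCLAF1 at 20.7 ± 1.59 and 22.4 ± 5.17 FPKM. Among death receptors, TNFRSF1A, a receptor for tumour necrosis factor, stood at 31.7 ± 6.09 FPKM with high protein, against 28.2 ± 8.00 FPKM in controls, and TNFRSF21 at 26.0 ± 2.94 and 23.2 ± 8.15 FPKM. Each of these differences was smaller than 1 SD of the controls. Others exceeded 1 SD of the group they were set against. BCL2A1 stood at 1.70 ± 0.553 FPKM with high protein, against 2.17 ± 0.361 FPKM in controls. In lactulose against high protein, BCL2L13 stood at 10.7 ± 0.688 and 9.08 ± 0.691 FPKM, and BCLAF1 at 24.1 ± 3.32 and 20.7 ± 1.59 FPKM. None of them passed the adjusted threshold by edgeR. The split by SD did not follow edgeR's unadjusted p. In high protein against control that p was 0.185 for DFFA and 0.179 for BCL2A1. In lactulose against high protein it was 0.234 for BCL2L13 and 0.315 for BCLAF1.

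Marker lists of other cell types held 0 called genes in each comparison by edgeR, but their levels differed between libraries. T and NK cell markers, 12 of 14, summed to 226 to 294 FPKM with lactulose, 258 to 419 FPKM with high protein and 268 to 473 FPKM in controls, and 11 of 12 were negative in lactulose against control, with a median log2 fold change of −0.36. Proliferating crypt markers, 15 of 15, summed to 208 to 355, 294 to 388 and 266 to 387 FPKM in lactulose, high protein and control libraries, and 13 of 15 were negative in lactulose against control. Macrophage and dendritic cell markers, 12 of 14, summed to 2739 to 3636, 2916 to 3725 and 2088 to 3842 FPKM in that order. Of these markers 11 of 12 were negative in lactulose against high protein (median −0.51), where 52.8% of all genes tested were positive. In high protein against control 11 of 12 were positive (median 0.32), where 46.15% of all genes tested were. B and plasma cell markers, 12 of 14, summed to 234 to 332, 190 to 337 and 189 to 342 FPKM, and enteroendocrine markers, 10 of 10, to 332 to 444, 217 to 345 and 186 to 343 FPKM. In some lists positive values prevailed. In lactulose against control, 11 of 12 smooth muscle markers (median 0.47), 15 of 19 enterocyte markers (0.30) and 8 of 10 enteroendocrine markers (0.36) were positive. In lactulose against high protein, 10 of 10 enteroendocrine markers (0.41) and 16 of 19 enterocyte markers (0.32) were positive, and in high protein against control 12 of 12 smooth muscle markers (0.34). Goblet markers, 4 of 9, summed to 644 to 708, 470 to 708 and 504 to 672 FPKM, and the 1 red blood cell marker of 8 in the table stayed at or below 1.89 FPKM. No listed marker in the table was at 0 in all libraries. Their part in the differences of BCL2L15 and BID was not tested.

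Positions are those of the deposited table, on its scaffolds. BCL2L15 (ID 106041329) spans 455407 to 459651 on the plus strand of NW_025927716.1 and BCL2L14 (ID 106030861) 326292 to 352835 on the minus strand of NW_025927987.1. MCL1 (ID 106029353) spans 414804 to 420273 on the plus strand of NW_025928013.1, BCL2L1 (ID 106047170) 1072982 to 1088813 on the plus strand of NW_025927898.1 and BCL2 (ID 106039908) 2492144 to 2584583 on the minus strand of NW_025927747.1. BAK1 (ID 106046164) spans 271899 to 290335 on the minus strand of NW_025927989.1 and BOK (ID 106039271) 1500157 to 1518621 on the minus strand of NW_025927757.1. BID (ID 106030927) spans 2097380 to 2117120 on the plus strand of NW_025927662.1, BCL2L11 (ID 106042285) 1343454 to 1356325 on the minus strand of NW_025927771.1 and BMF (ID 106031686) 535616 to 581313 on the plus strand of NW_025927790.1.

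Of the 10 members, 5 overlap a gene on the opposite strand in the table, and whether counting used the strand is not given in the sources used here. MCL1 shares 1040 bases with ECM1, which stood at 8.86 to 38.2 FPKM, and BMF shares 287 bases with GPHN, at 3.53 to 6.10 FPKM. The overlapping genes of BCL2, BCL2L1 and BAK1 have no symbol and stood at no more than 0.150, 0.414 and 0.0793 FPKM. BCL2L15, BCL2L14, BOK, BID and BCL2L11 overlap no other gene of the table.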

How the data were processed

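The authors deposited, for each gene and library, the count and the FPKM in a single table, per the file headers. Tools listed, without their roles, in the submitters' processing notes are StringTie 2.1.6, HISAT2 2.2.1, cutadapt 1.9, edgeR and DESeq2; a genome build is not given in the sources used here. Per the labels' protocols the second cDNA strand was U-labelled. The deposited count 4 occurs 5063 times, against 1799 times for 3 and 1526 times for 5, so 1 read pair may stand for about 4 counts. Columns were matched to groups by the library names in the labels, and 0 columns belonged to other samples.

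Counts were tested with edgeR 4.0.16 (quasi-likelihood, TMM, filterByExpr with a minimum count of 10, 9 residual degrees of freedom, two-sided) over 16075 genes, with diet as the only term and all 12 libraries. Standard errors were derived from the F statistic (effect size over root F). Alternatives were DESeq2 1.42.0, limma 3.58.1 on log2(FPKM + 1) or log2(FPKM + 0.1), other scalings, filters, a covariate, a block and left-out libraries. Correlations used 100000 permutations, two-sided. The code was tested on simulated data.

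The members, the 6 pathway lists and the 9 marker lists were chosen with earlier results of these data known. Named were all members, up to 2 genes of smallest p per pathway list and comparison, and the 3 genes of nearest pattern per member. A gene that this rule names is not reported here. FABP6, CDX2 and MYH11 were added to check the tissue. Of 19836 identifiers, 17685 matched the RefSeq gene table of another goose assembly (Taihu goose), which gave 687 genes with a LOC name a symbol. No sequence was used.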

Additional observations from a re-analysis of the deposited data

Results flagged for a closer look

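BCL2 stood at 6.005 FPKM in high protein 3, far above the other 3 high protein libraries, whose highest value was 4.24 FPKM. The summed FPKM of BAK1 and BOK stood at 22.0 in control 3, far below the other 3 controls, whose lowest value was 33.9. Both were singled out by Dixon's gap test within a diet of 4 libraries, applied to 42 sets of 4 values. Chance alone singles out about 1 set in 20. High protein 3 had the lowest enterocyte marker level of its diet (mean log2 CPM 7.43, against 8.91 to 9.56 in the other high protein libraries), and control 3 the lowest correlation with its own diet. Their part in these values was not tested.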

How the results depend on the processing

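Of the 30 fold changes of members, 18 kept their direction under all 24 alternatives (1 chosen after seeing the data: control 3 left out with lactulose 3 and 5 as 1 library), and 0 of 10 members passed in any comparison under any of them (lowest adjusted p 0.156, BCL2L15 by DESeq2). The cause of the changes below was not tested. Over all genes edgeR called 0 in each comparison. DESeq2 called 22 in lactulose against control, 19 in lactulose against high protein and 8 in high protein against control. In the same order limma called 1, 0 and 1 with either pseudocount and 2, 0 and 2 with no filter, edgeR called 1, 0 and 1 with no filter, and leaving out 1 library gave 0 to 1 in each. Limma on FPKM gave a median of all genes of 0.086 and 0.10 (pseudocounts 1 and 0.1) in lactulose against control, where edgeR gave 0.00. Among genes at an unadjusted p under 0.05, limma had 423 higher and 225 lower there and 448 higher and 283 lower in lactulose against high protein, where edgeR had 364 higher and 633 lower, and 372 higher and 536 lower.

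Fold changes near 0 took either sign (log2). In lactulose against control, limma gave BCL2L14 0.064 and 0.070 (pseudocounts 1 and 0.1), BCL2 0.097 and 0.14, and MCL1 0.0065 and 0.0067, with the values at pseudocount 1 also found without a filter. BCL2 was 0.0037 with DESeq2, 0.0034 with RLE factors, 0.015 with the enterocyte covariate and 0.077 with lactulose 3 and 5 as 1 library. BMF was −0.075 with that and without control 3. In lactulose against high protein, limma gave MCL1 0.065 and 0.066 and BCL2L11 0.012 and 0.013. With lactulose 3 and 5 as 1 library BAK1 was −0.059 and BMF −0.085, and without control 3 as well −0.059 and −0.084. In high protein against control, BCL2L1 was −0.00042 with the covariate, and BID 0.036 with control 3 left out and lactulose 3 and 5 as 1 library. Leaving out 1 library at a time gave −0.10 to 0.077 for BCL2L1 and −0.23 to 0.038 for BID in high protein against control. It gave −0.081 to 0.029 for MCL1, −0.090 to 0.13 for BAK1 and −0.12 to 0.19 for BMF in lactulose against high protein, and −0.21 to 0.19 for BCL2L14, −0.20 to 0.17 for BCL2 and −0.0046 to 0.23 for BCL2L11 in lactulose against control.

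No label says that a replicate number marks anything shared, and deviations of same-numbered libraries correlated at −0.133 to 0.196 over 6 pairs, so the numbers were not taken as pairs. With the replicate number as a block, 0 genes were called in each comparison. Under the replicate block BID stood at 0.014 in high protein against control, MCL1 at 0.16 in lactulose against high protein, and BCL2L14 at 0.35, BCL2 at 0.18, MCL1 at 0.026 and BAK1 at 0.019 in lactulose against control.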
